A study of Saccharomyces cerevisiae YPS1009 with 40 samples.

Results

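YPS1009_Chr14 is a haploid, MATa strain of YPS1009, a wild isolate of Saccharomyces cerevisiae from oak soil, that carries an extra copy of chromosome 14. Its transcript abundance after 1 day of culture was compared with that in log phase, across all genes. The comparison uses the 4 libraries that the labels give to this strain at these time points, of 40 in the series: 2 biological replicate cultures at day 1 and 2 in log phase. Of the 6714 genes counted, 5864 had enough reads to be tested. Day 1 cells were taken from rich glucose medium (YPD), kept with shaking and no added nutrients, at 24 h, which the labels count from the start of culturing and the study's methods from the log-phase harvest, and log-phase cells were taken after 3 generations in the same medium. Both groups carry the extra chromosome and are listed with the ho-Δ1 allele. Euploid YPS1009 cells, taken at the same time points (2 cultures each), carry no extra chromosome and are listed as hoΔ::HphMX, so the extra chromosome and the ho allele cannot be told apart between these strains. YPS1009_Chr14 was 1 strain, and the study's methods state that maintenance of its extra chromosome was checked by plating and by quantitative PCR. The plating selected for 2 chromosome markers, on medium without histidine and with nourseothricin. Any effect of such markers on a comparison with euploid cannot be told apart from that of the extra chromosome either.

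Yeast given glucose ferments it to ethanol and represses the genes for respiration and for other carbon sources. When glucose runs out, at the diauxic shift, cells turn to the ethanol and acetate they made, respire, and turn down the synthesis of ribosomes. They then store glycogen and trehalose, make stress proteins and leave the cell cycle for quiescence, the resting state that keeps a starved culture alive.

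The 2 day 1 libraries held 3147663 and 2349556 counts, and the 2 log-phase libraries held 7036849 and 4649674. A limit of 3 counts per library corresponded to 0.894 and 1.22 CPM (the usual unit of counts relative to library size, here with sizes scaled by TMM) at day 1 and to 0.427 and 0.600 CPM in log phase, which covers counting error only. All changes are relative to the other transcripts of the same library. Cells of another species had been added to set a scale per cell, but their reads were not analysed here, so a rise or fall shared by all transcripts of a cell cannot be seen. "Rose" and "fell" below are relative in this sense. Genes of chromosome XIV stood above the other nuclear genes, by the median log2 ratio to euploid, by 0.93 and 0.98 in the 2 day 1 cultures and by 0.89 and 0.91 in the 2 log-phase cultures (399 genes), close to the value of 1 that a second copy would give. HO had no count in any of the 4 YPS1009_Chr14 libraries, but 5 and 10 counts in the euploid day 1 libraries and 28 and 16 in the euploid log-phase libraries, which goes against a full loss of HO transcript under the hoΔ::HphMX label of the study's strain list. The mean HO level was 4.47 CPM at day 1 and 2.80 CPM in log phase in YPS1009_Chr12, listed with the same allele as euploid. Which part of the gene these reads come from was not tested. Of the 6 markers of MATa cells, BAR1 and STE2 fell and the other 4 did not pass the test. STE2, the receptor for the mating pheromone of the opposite type, had 29.8 and 45.6 CPM at day 1 and 675 and 625 CPM in log phase.

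Between day 1 and log phase, 2035 genes rose and 1940 fell of 5864 tested, or 34.7% and 33.1%, and together 67.8% (quasi-likelihood test of edgeR, FDR under 0.05 by the Benjamini-Hochberg method, given below as adjusted p). The median log2 change over all genes tested was 0.04, with quartiles of -1.03 and 1.17. Rises were larger than falls: 857 genes rose and 640 fell by more than 4-fold, and 320 rose and 65 fell by more than 16-fold. The plot of change by level shows the same asymmetry. DESeq2's size factors lowered the median gene by 0.26, and the calls became 1728 higher and 2310 lower, so small changes take their direction from the scaling. The median SD between cultures was 0.13 at day 1 and 0.12 in log phase, in log2 of CPM plus 1.

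**Figure D1:**
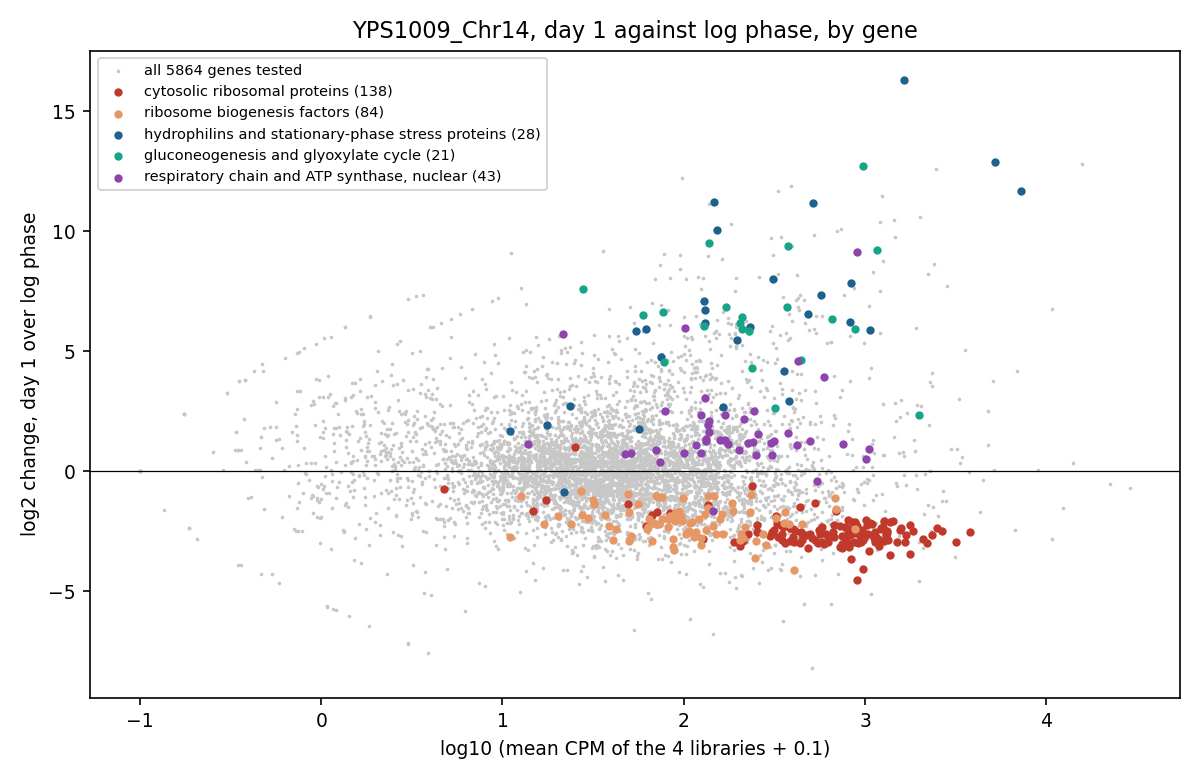
Log2 change of each gene in YPS1009_Chr14, day 1 over log phase, against its mean level (log10 of CPM plus 0.1, 4 libraries). Grey points are all 5864 genes tested and colours mark members of 5 lists: ribosome biogenesis genes lie below 0, between -4.13 and -0.81, and stress protein genes reach a log2 change of 16.3.

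The largest rises, where both day 1 libraries had 100 counts or more, were in genes nearly silent in log phase. SIP18, a hydrophilin that protects cells from drying, had 11018 and 8050 counts at day 1 and none in either log-phase library, and was at least 6390-fold higher against a limit of 3 counts per library. GRE1, another hydrophilin, had 9600 and 11300 CPM at day 1, against 1.14 and 1.60 in log phase. TDH1, an isozyme of glyceraldehyde-3-phosphate dehydrogenase, had 29000 and 33900 CPM at day 1 and 5.40 and 3.20 CPM in log phase. The day 1 and log-phase cultures of these genes did not overlap, which their choice as the largest rises largely fixes. TDH1 alone took more reads at day 1 than any other gene. PDC6, a minor pyruvate decarboxylase, changed by 12.61 ± 1.00 on the log2 scale (SE, n = 2 cultures each), HSP26, a small heat shock protein, by 11.68 ± 0.66, SPS100, a spore wall protein, by 11.49 ± 0.48 and DDR2, a stress protein, by 11.16 ± 0.66. DPC7 had 746 and 414 counts at day 1 and none in log phase, and was at least 381-fold higher. For genes with 1 to 3 counts in log phase the ratio is loosely known: 4850 (1340 to 40100, exact 95% counting interval) for DPA10, 4180 (1160 to 34500) for RGI2, a respiratory growth gene, and 3550 (636 to 140000) for SPG1, a stationary phase gene.

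The largest falls, where both log-phase libraries had 100 counts or more, were led by UTR2. This gene, whose product links chitin to glucan in the wall, had 1.79 and 5.29 CPM at day 1 and 1050 and 973 CPM in log phase, a log2 change of -8.22 ± 0.43. SRL1, a mannoprotein of the wall, changed by -6.78 ± 0.42 and MKC7, a surface protease, by -6.18 ± 0.34. INA1 changed by -6.24 ± 0.51, SFG1, a regulator of growth form, by -6.62 ± 0.38, and NFG1, a negative regulator of filamentous growth, by -5.34 ± 0.36. FRE4, a ferric reductase, had 18.2 and 20.3 CPM at day 1 and 975 and 818 CPM in log phase. IMD4, an IMP dehydrogenase of guanine nucleotide synthesis, changed by -5.54 ± 0.60, and HXT2, a high-affinity glucose transporter, by -5.11 ± 0.91. IRC7, ARI1, an aldehyde reductase, and BSC1 completed the 12 largest falls, with log2 changes of -5.08, -5.05 and -4.85. In every case both day 1 cultures lay below both log-phase cultures, which the choice of the largest falls largely fixes.

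Genes for making ribosomes fell almost without exception. Of 138 cytosolic ribosomal protein genes, 136 fell, with a median log2 change of -2.62, against 0.04 over all genes tested. RPL3 had 1070 and 1160 CPM at day 1 and 6620 and 6320 CPM in log phase. RPS6A changed by -2.86 ± 0.30, and RPL9A had the lowest value of the list, -4.54 ± 0.29. RPL15B was the 1 gene called as a rise, with 31.9 and 35.0 CPM at day 1 and 13.2 and 20 CPM in log phase, and it lost its call without log-phase replicate 1 (log2 change 0.74, adjusted p = 0.062). All 84 ribosome biogenesis factors fell (median -2.15), among them NOP1, the methylase of box C/D particles, at -4.13 ± 0.61, and NSR1, a nucleolar protein, at -2.79 ± 0.51. Their smallest fall was that of LOC1 (-0.81), which became -0.22 (adjusted p = 0.57) without log-phase replicate 2 and -0.65 (adjusted p = 0.14) without day 1 replicate 2. Of 19 subunits of RNA polymerases I and III, 18 fell, from -3.60 in RPA12 to -0.58 in RET1 (adjusted p = 0.16 without day 1 replicate 1 and 0.075 without log-phase replicate 1). Of 30 translation factors tested, 29 fell, with TEF1, elongation factor 1A, at -1.88 ± 0.28 and TEF4 at -2.96 ± 0.40. CAM1, a paralog of TEF4 and a subunit of the same exchange factor, rose by 0.94 ± 0.26. Ribosomal protein genes took 3.62% and 3.35% of the counts at day 1, against 20.4% and 21.3% in log phase. Many of these genes, TEF1 included, have near-identical copies, between which reads could be split by the counting.

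The 75 mitochondrial ribosomal protein genes tested followed another course. Of these, 30 fell and 4 rose, and 41 did not pass the test, with a median of -0.36. Of all genes tested, 33.1% fell and 34.7% rose. By DESeq2, whose size factors shift the median of all genes by -0.26, 3 rose and 45 fell. MRP8, whose product is listed with them but whose role is unclear, rose by 2.86 ± 0.27, and MNP1 fell by 1.62 on the log2 scale.

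Genes for the use of carbon sources other than glucose rose together. All 21 genes of gluconeogenesis, the glyoxylate cycle and their regulators rose, with a median of 6.35. PCK1, which makes phosphoenolpyruvate at the start of gluconeogenesis, had 9704 and 2446 counts at day 1 and 3 and 0 in log phase, a ratio of 8390 (2870 to 40700, exact 95% counting interval). FBP1, the fructose bisphosphatase of the same path, had 556 and 245 CPM at day 1 and 6.54 and 4.40 CPM in log phase. ICL1, isocitrate lyase of the glyoxylate cycle, changed by 5.93 ± 0.50. Even the smallest rise of the list, that of the aconitase ACO1, was 2.34 ± 0.36. In the 16 genes of alcohol and acetate metabolism, 8 rose and 1 fell. ACS1, the acetyl-CoA synthetase used on acetate and ethanol, had 3020 and 1370 CPM at day 1, against 5.69 and 8.20 in log phase. ADH2, the alcohol dehydrogenase that consumes ethanol, changed by 2.10 ± 0.47, whereas ADH1, which makes it, was at 8150 and 10100 CPM at day 1 and 9730 and 8050 CPM in log phase, with overlapping cultures. ALD6, an acetaldehyde dehydrogenase, was at -1.25 ± 0.49 (adjusted p = 0.025), a call lost without day 1 replicate 2 (-0.98, adjusted p = 0.18) and without log-phase replicate 1 (-1.10, adjusted p = 0.10).

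Within glycolysis, isozymes parted while most shared steps stayed near the median gene. Of 15 genes, 4 rose, 2 fell and 9 did not pass the test. ENO1, one form of enolase, had 20300 and 22500 CPM at day 1 and 205 and 187 CPM in log phase. ENO2, the other form, changed by -1.53 ± 0.38. TDH1 rose as given above, while TDH3, the main form in growing cells, was at -0.52 ± 0.44 (adjusted p = 0.29). PYK2, a second pyruvate kinase, rose with a log2 change of 4.56. These isozymes are close in sequence, and reads may be shared between them. PDC1, the main pyruvate decarboxylase, took more reads in log phase than any other gene and was at -0.72 ± 0.45 (adjusted p = 0.16).

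The hexose kinases and transporters showed the same split. HXK1, a hexokinase repressed by glucose, had 735 and 950 CPM at day 1 and 2.99 and 2.80 CPM in log phase. GLK1, glucokinase, changed by 5.35 ± 0.42. HXK2, the hexokinase of cells growing on glucose, changed by -3.41 ± 0.45. Of 18 hexose transporters and sensors tested, 8 rose and 3 fell. HXT5, a transporter of starved cells, had 4170 and 3900 CPM at day 1 and 2.56 and 2.60 CPM in log phase. HXT3 and HXT1, low-affinity transporters, changed by -4.42 ± 0.46 and -2.72 ± 0.32, and HXT2 fell as given above. HXT7, a high-affinity transporter, had 435 and 640 CPM at day 1 and 534 and 452 CPM in log phase, with overlapping cultures. Its neighbour and near-identical copy HXT6 was at 5.97, so the values of this pair are uncertain.

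**Figure D2:**
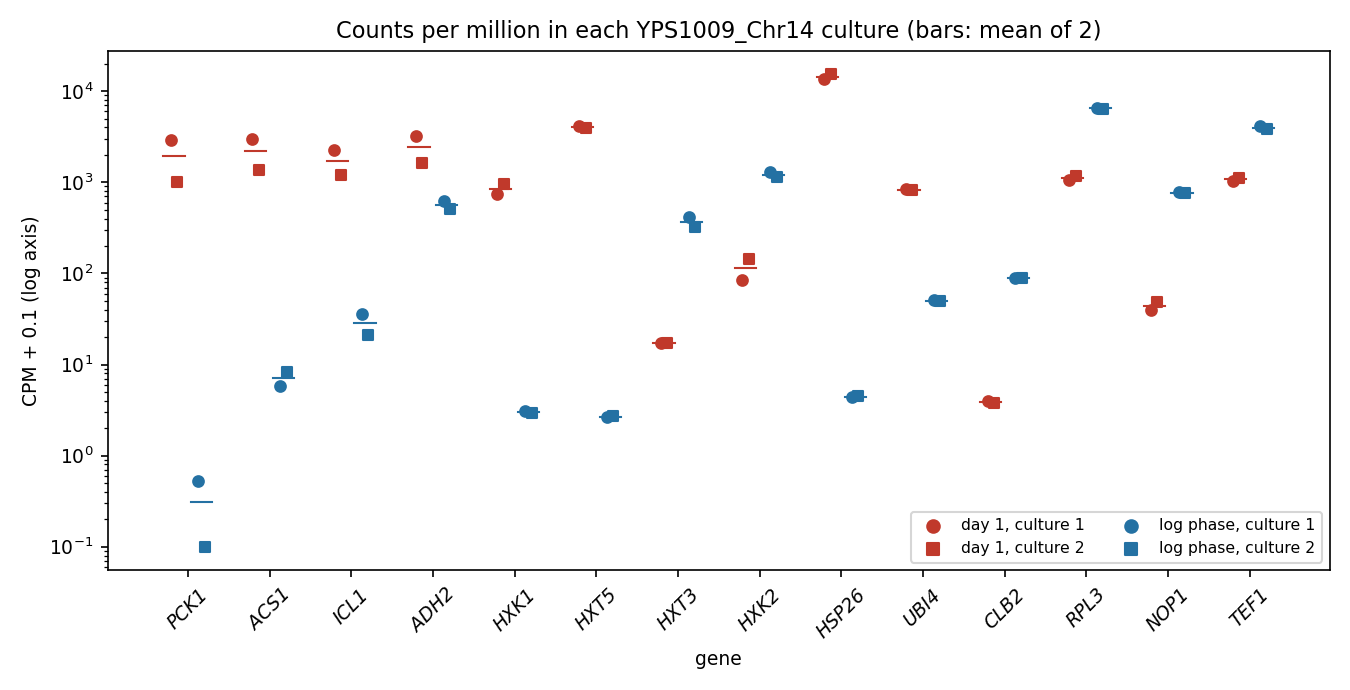
CPM (plus 0.1, log axis) of 14 genes in each YPS1009_Chr14 culture, day 1 left of log phase, with circles for replicate 1, squares for replicate 2 and bars for the mean of the 2 cultures. Day 1 and log phase do not overlap in any of these genes, and PCK1, ACS1, ICL1 and ADH2 lie lower in day 1 replicate 2 than in replicate 1.

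Most transcripts of respiration genes rose, in the nuclear and in the mitochondrial genome. Of 24 genes of the tricarboxylic acid cycle, 16 rose and 2 fell (median 1.89). CIT1, the mitochondrial citrate synthase, had 2270 and 1650 CPM at day 1 and 131 and 136 CPM in log phase, and SDH2, the iron-sulfur subunit of succinate dehydrogenase, changed by 4.58 ± 0.46. Of 43 nuclear genes of the respiratory chain and ATP synthase, 39 rose (median 1.26). NDE2, an external NADH dehydrogenase, changed by 9.14 ± 0.64. COX5A and COX5B, alternative forms of a cytochrome oxidase subunit, both rose, by 1.15 ± 0.29 and 1.14 ± 0.28. The cytochrome c genes moved in opposite directions: CYC7 had 39.9 and 44.8 CPM at day 1 and 0.426 and 1.20 CPM in log phase, while CYC1 fell to 76.9 and 61.4 CPM at day 1, against 209 and 230 in log phase. Of the 7 protein genes of the mitochondrial genome that were tested, 6 rose, with COX1 at 9860 and 8950 CPM at day 1 and 693 and 715 CPM in log phase. Transcripts of the mitochondrial genome as a whole took 3.05% and 2.53% of the counts at day 1 and 0.266% and 0.300% in log phase. HAP4, which activates respiratory genes in yeast, changed by 1.71 ± 0.35.

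The 2 day 1 cultures were not equal in these genes. All 21 genes of gluconeogenesis and the glyoxylate cycle were lower in replicate 2 than in replicate 1, by a median of 0.78 in log2 of CPM plus 1, against 0.01 over all genes tested. The nuclear respiratory genes were lower in replicate 2 in 40 of 43 cases (median 0.27), and beta-oxidation genes in 19 of 23 (median 0.34). The hexose kinases were higher in replicate 2 in all 4 cases. In the genes named above as rises, both day 1 cultures still lay above both log-phase cultures, which their call as rises makes likely. The part of this gap in the results was not tested.

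Storage carbohydrate and stress protein genes rose. Of 21 genes of trehalose and glycogen metabolism, 20 rose (median 4.90). GPH1, glycogen phosphorylase, had 1610 and 1850 CPM at day 1 and 9.10 and 8.40 CPM in log phase. GSY2, glycogen synthase, changed by 5.14 ± 0.30 and TPS1, trehalose-6-phosphate synthase, by 1.87 ± 0.43. PGM1, the minor phosphoglucomutase, was the exception at -3.47 ± 0.25. Of 28 hydrophilins and stationary-phase stress proteins, 27 rose (median 6.10). HSP12, a membrane-stabilizing hydrophilin, had 616 and 620 CPM at day 1 and 2.27 and 2.40 CPM in log phase. The exception was NOP6 at -0.87, which became -0.25 (adjusted p = 0.55) without log-phase replicate 2 and lost its call without day 1 replicate 2 as well (-0.58, adjusted p = 0.21). This list took 4.28% and 4.52% of the counts at day 1 and 0.0367% and 0.0387% in log phase. All 6 SNZ and SNO genes, vitamin B6 synthesis genes known for their stationary phase expression, rose, by 1.75 ± 0.42 in SNZ1 and 4.90 ± 0.67 in SNZ2, which has a near-identical copy.

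Of 28 antioxidant genes, 13 rose and 5 fell, against 34.7% and 33.1% of all genes. CTT1, cytosolic catalase, had 719 and 968 CPM at day 1 and 7.53 and 7.20 CPM in log phase, and SOD2, the mitochondrial superoxide dismutase, changed by 3.08 ± 0.39. GPX2, a glutathione peroxidase, changed by -3.49 ± 0.51.

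Genes of fat breakdown and autophagy mostly rose, and those of fatty acid synthesis mostly fell. Of 23 genes of fatty acid beta-oxidation and the peroxisome, 19 rose (median 3.55), led by CAT2, carnitine acetyltransferase, at 6.83 ± 0.52. ANT1, the peroxisomal ATP carrier, was at -0.74 ± 0.22, which lost its call without log-phase replicate 1 (-0.57, adjusted p = 0.067). Of 11 genes of fatty acid synthesis and desaturation, 7 fell and 1 rose. The rise was that of OLE1, the fatty acid desaturase, with 9140 and 7040 CPM at day 1 and 1510 and 1350 CPM in log phase. ELO3, which lengthens fatty acids for sphingolipids, had 23.0 and 16.3 CPM at day 1, against 549 and 448 in log phase. Of 24 ergosterol genes, 5 rose and 9 fell, against 34.7% and 33.1% of all genes. Their changes ran from -3.11 ± 0.32 in ERG4 to 1.36 ± 0.28 in ERG5. All 25 autophagy genes tested passed the test as rises (median 2.90). ATG39, a receptor for autophagy of the nuclear envelope, had 183 and 196 CPM at day 1 and 0.569 and 0 CPM in log phase. VPS34, the phosphatidylinositol 3-kinase, had the smallest rise, 0.53, and lost its call under 4 other settings and without 3 of the 4 libraries: at 0.43 without day 1 replicate 1 and at 0.58 and 0.48 without log-phase replicates 1 and 2. Of 12 vacuolar proteases and inhibitors, 10 rose. PAI3, an inhibitor of proteinase A, changed by 5.91 ± 0.38, and APE3, an aminopeptidase, was at -0.15 ± 0.30.

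Phosphate genes mostly rose. Of 21 genes of the phosphate regulon, 16 rose and 2 fell (median 2.41). PHO5, the secreted acid phosphatase, had 4230 and 4590 CPM at day 1 and 15.9 and 13.2 CPM in log phase. GIT1, a glycerophosphoinositol transporter, had 1295 and 847 counts at day 1 and 2 and 1 in log phase, a ratio of 1480 (505 to 7170, exact 95% counting interval). PHO90, a low-affinity phosphate transporter, changed by -2.09 ± 0.34. In the permease, purine and iron lists, the shares of rises and falls were near those of all genes (34.7% and 33.1%). Of 24 amino acid and ammonium permeases, 9 rose and 9 fell. PUT4, the proline permease, had 398 and 201 CPM at day 1 and 4.83 and 2.40 CPM in log phase, and GNP1, a glutamine permease, had 8.65 and 8.54 CPM at day 1, against 287 and 208 in log phase. In 21 genes of purine synthesis and folate metabolism, 9 rose and 7 fell. ADE17, which closes the purine ring, changed by 2.59 ± 0.38. IMD2, an IMP dehydrogenase, had no count at day 1 and 38 and 31 counts in log phase, and was at least 5.49-fold lower. Of 23 iron genes, 9 rose and 8 fell. TIS11, which destabilizes iron-dependent transcripts, changed by 3.50 ± 0.45, in the opposite direction to FRE4.

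Cyclin and core histone genes mostly fell. Of 21 cyclins and regulators of G1, 15 fell and none rose, by edgeR, at an unadjusted p under 0.05 or by DESeq2 (median -1.58). CLN1 and CLN2, the G1 cyclins of Start, changed by -1.98 ± 0.27 and -2.14 ± 0.26. CLN3, the cyclin upstream of them, was at 0.50 ± 0.27 (adjusted p = 0.11). CLB2, a mitotic cyclin, had 3.88 and 3.66 CPM at day 1 and 88.6 and 88.8 CPM in log phase. NRM1, a repressor of G1 transcription, changed by -4.72 ± 0.40, and SIC1, the inhibitor of S-phase kinase, was at 0.54 ± 0.35 (adjusted p = 0.17). Of 10 histone genes, 8 fell, led by HTB2 at -4.02 ± 0.29. HTZ1, the H2A variant, was at -0.38 ± 0.20 (adjusted p = 0.093). Of 31 genes of DNA replication and nucleotide reduction, 19 fell and 4 rose. RNR1, the large subunit of ribonucleotide reductase, changed by -3.43 ± 0.29, whereas RNR3, its damage-inducible alternative, had 225 and 209 CPM at day 1 and 4.12 and 5.40 CPM in log phase. Of 31 cell wall and septation genes, 10 rose and 15 fell, against 34.7% and 33.1% of all genes. PIR3, a wall protein, had 1860 and 2960 CPM at day 1, against 1.56 and 2 in log phase.

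Protein quality control was followed by the study in aneuploid cells. When a ribosome stalls, Hel2 marks it with ubiquitin, the subunits are taken apart, and Rqc1, Rqc2 and the ubiquitin ligase Rkr1 act on the nascent chain. Of 23 genes of ribosome quality control and stall rescue, 12 fell and 2 rose, with a median of -0.54. Of all genes tested, 33.1% fell and 34.7% rose. By DESeq2, whose size factors shift the median of all genes by -0.26, 16 of the list fell and 2 rose. HEL2 had 41.1 and 46.8 CPM at day 1 and 84.9 and 83.6 CPM in log phase, a log2 change of -0.94 ± 0.24 (adjusted p = 0.0010). RQC1 was at -0.53 ± 0.19 (adjusted p = 0.017), and lost its call without day 1 replicate 2 (-0.35, adjusted p = 0.21) and without log-phase replicate 1 (-0.51, adjusted p = 0.067). RKR1 was at -0.32 ± 0.28 (adjusted p = 0.32). ASC1, a ribosomal protein that senses collisions, changed by -2.94 ± 0.36, near the median of the ribosomal protein genes. SSD1, an RNA-binding translational repressor known to matter for how wild yeast tolerates extra chromosomes, had 1020 and 1090 CPM at day 1 and 307 and 256 CPM in log phase.

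Among ubiquitin genes, UBI4, the stress-induced polyubiquitin gene, had 837 and 825 CPM at day 1 and 50.6 and 49.8 CPM in log phase, a 16.5-fold rise. Of the 15 genes of this list, 5 rose and 7 fell, where 34.7% of all genes rose and 33.1% fell. Those that fell include the ubiquitin genes fused to ribosomal proteins, RPL40A (-2.36), RPL40B (-2.99) and RPS31 (-2.67). RFU1, an inhibitor of ubiquitin recycling, changed by -3.12 ± 0.41. UBI4 is built of repeated units that other ubiquitin genes share, so reads may be split between them. Of 34 proteasome genes, 30 did not pass the test, with a median of -0.02, and 2 rose and 2 fell. By DESeq2, whose size factors shift the median of all genes by -0.26, 1 rose and 11 fell. RPN4, the activator of proteasome genes, rose by 1.64 ± 0.31, and PRE8 was at -0.69 ± 0.18. Of 35 cytosolic chaperones tested, 11 rose and 17 fell, against 34.7% and 33.1% of all genes. HSP104, the disaggregase, changed by 3.38 ± 0.40 and SSA4, a stress-induced Hsp70, by 4.01 ± 0.34, while SSA2, the Hsp70 of growing cells, had 151 and 167 CPM at day 1 and 4210 and 3360 CPM in log phase. HSP30, a membrane protein of starved cells, changed by 9.78 ± 0.49.

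Among 32 regulators of quiescence and nutrient signalling, 18 rose and 6 fell. XBP1, a repressor of transcription in quiescent cells, had 264 and 247 CPM at day 1 and 1.56 and 2.20 CPM in log phase. GIS1, an activator of post-diauxic genes, changed by 2.09 ± 0.26. RAS1, one of the Ras GTPases that report glucose, changed by -2.82 ± 0.40.

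Markers of other cell states took few of the counts. None of the 4 MATalpha genes passed the test by edgeR, adjusted or at an unadjusted p under 0.05, and 1 did by DESeq2. STE3, which defines that type, had 19 and 19 counts at day 1 and 2 and 0 in log phase, a ratio of 39.3 (10.2 to 337, exact 95% counting interval). Together these genes took 0.00546% and 0.00455% of the counts at day 1 and 0.00243% and 0.00196% in log phase. Of 12 meiosis and sporulation genes, 6 rose and 1 fell, and they took 0.0131% and 0.0112% of the counts at day 1 and 0.00371% and 0.00406% in log phase. IME1, the inducer of meiosis, which nutrient loss switches on, had 87 and 45 counts at day 1 and none in log phase, at least 43.1-fold higher. SPS4, a sporulation gene, fell to 4 and 0 counts, against 28 and 22 in log phase, and lost its call without day 1 replicate 2 (-1.77, adjusted p = 0.066).

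**Figure D3:**
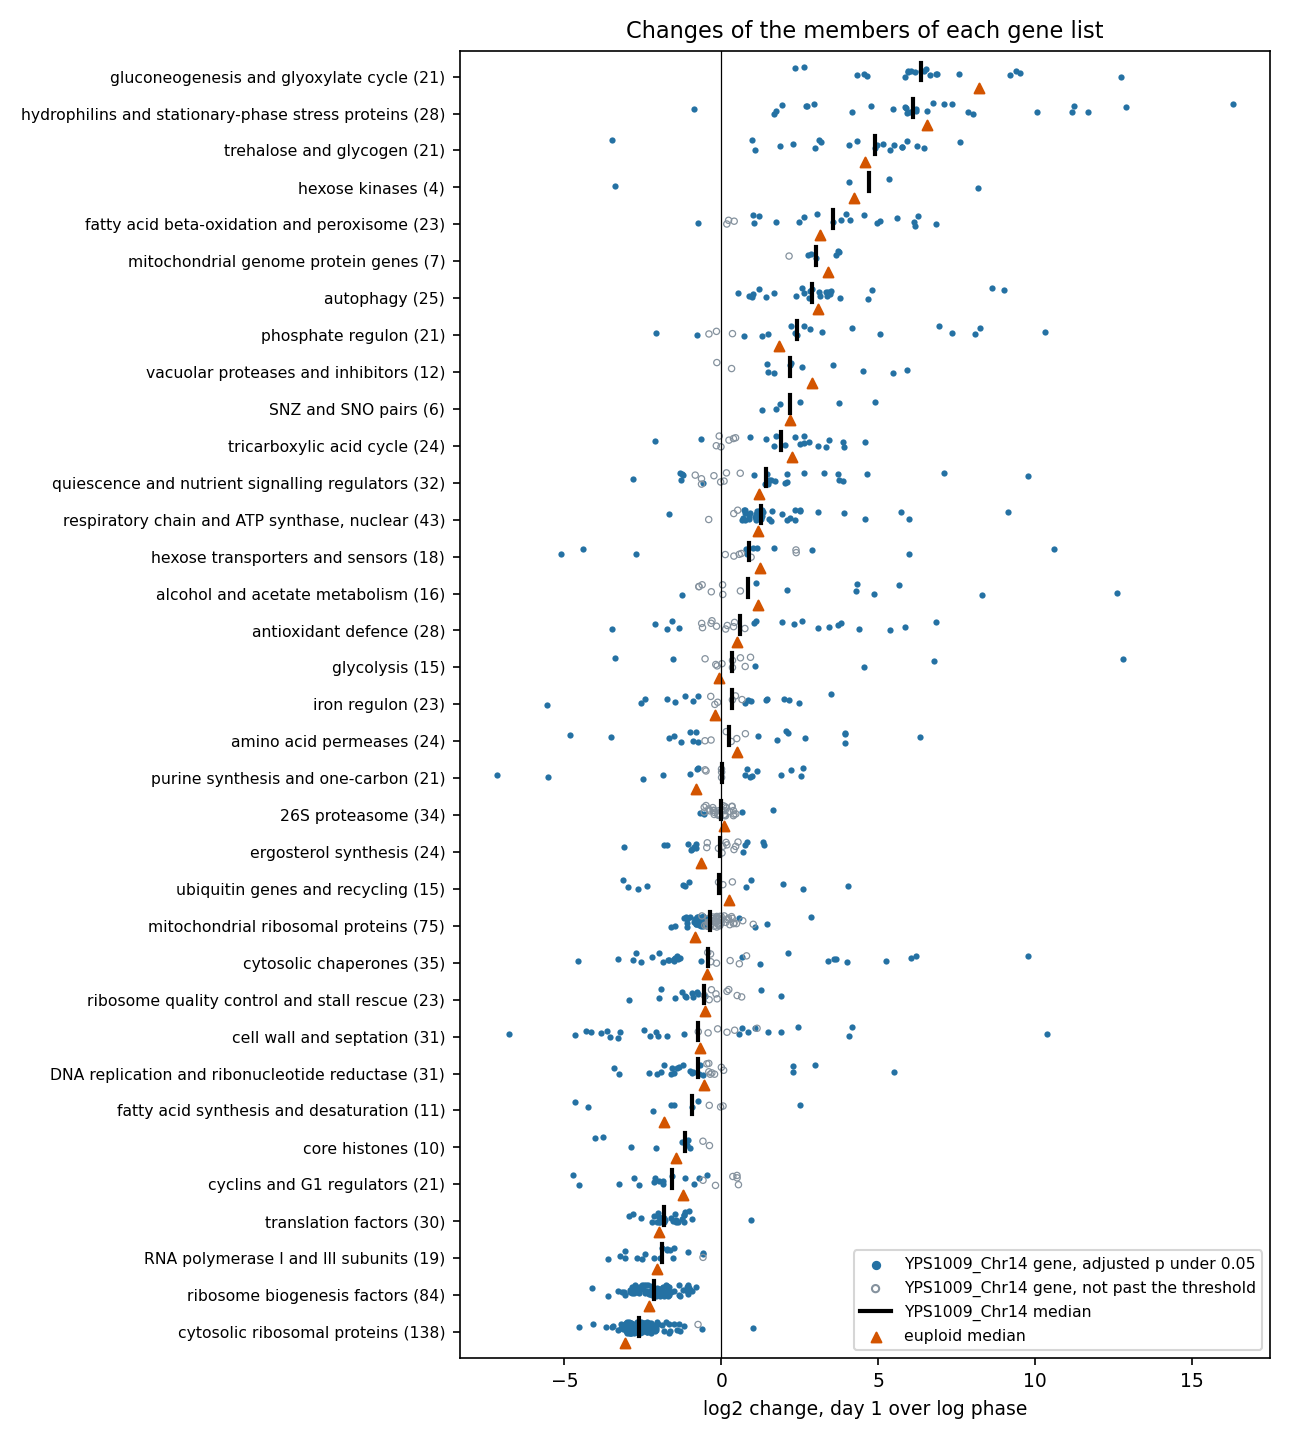
Log2 change of each gene in YPS1009_Chr14, day 1 over log phase, by list (number of genes tested in brackets). Filled points passed the threshold and open points did not, black bars are the medians in YPS1009_Chr14 and orange triangles the medians in euploid, with the YPS1009_Chr14 medians running from -2.62 in cytosolic ribosomal proteins to 6.35 in gluconeogenesis and the glyoxylate cycle.

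The same contrast was fitted in euploid cells to find where the strains part. In euploid, 34.3% of genes rose and 35.0% fell, together 69.4%. Across 5864 genes the log2 changes in YPS1009_Chr14 and in euploid had a Pearson correlation of 0.953, a description across genes, which are not independent replicates, in libraries scaled and fitted together. Of the 3975 genes called in YPS1009_Chr14, 3920 had the same sign in euploid. The median absolute difference between the strains' changes was 0.31. The difference itself passed the threshold in 63 genes, 1.07% of those tested: 25 (0.426%) had a higher change in YPS1009_Chr14 and 38 (0.648%) a lower one. These counts depended on single libraries. The 25 became 12 without YPS1009_Chr14 day 1 replicate 2, 10 and 7 without its log-phase replicates 1 and 2, 13 and 15 without euploid day 1 replicates 1 and 2, and 8 and 10 without euploid log-phase replicates 1 and 2. The 38 became 22 without YPS1009_Chr14 day 1 replicate 2, 20 without its log-phase replicate 1, and 17 and 20 without euploid log-phase replicates 1 and 2. With only the libraries of the 4 groups in the fit, 70 and 188 genes passed.

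No member of the lists for ribosomal proteins, ribosome biogenesis, the respiratory chain, trehalose and glycogen, autophagy, cyclins, the proteasome, chaperones or ribosome quality control differed from euploid past the threshold by edgeR. At an unadjusted p under 0.05, which 524 of all 5864 genes (8.94%) met, the numbers were 8 of 138 ribosomal protein genes and 1, 0, 1, 1, 1, 1, 1 and 0 in the other lists, and by DESeq2 they were 2, 0, 0, 0, 1, 0, 1, 0 and 0. Ribosome quality control genes had a median change of -0.54 in YPS1009_Chr14 and -0.53 in euploid. Other lists did hold members past the threshold, which 1.07% of all genes met. Of 28 hydrophilins and stress proteins, 2 had a lower change than euploid (5 differed at an unadjusted p under 0.05). So did 1 of 16 alcohol and acetate genes (6 unadjusted). Of 18 hexose transporters and sensors, 1 was higher and 1 lower (3 unadjusted). The purine, iron, phosphate and cell wall lists held 1 each. The 75 mitochondrial ribosomal protein genes had medians of -0.36 and -0.84. None of them differed past the threshold by edgeR, but 19 (25.3%) did at an unadjusted p under 0.05 and 5 by DESeq2. Genes of gluconeogenesis and the glyoxylate cycle had a median of 6.35 in YPS1009_Chr14 and 8.19 in euploid, and 1 of the 21 differed past the threshold (11 at an unadjusted p under 0.05, against 8.94% of all genes, and 5 by DESeq2). Their medians in YPS1009_Chr4, YPS1009_Chr12 and YPS1009_Chr15 were 6.02, 7.14 and 7.74. The gap between the YPS1009_Chr14 day 1 cultures in these genes (median 0.78, lower in replicate 2) enters this contrast. The 399 genes of chromosome XIV had a median change of -0.21 in YPS1009_Chr14 and -0.31 in euploid, 3 of the 63 genes lie on it, and the median difference between the strains over its genes was 0.04, within the range of the other nuclear chromosomes, which reached 0.12.

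**Figure D4:**
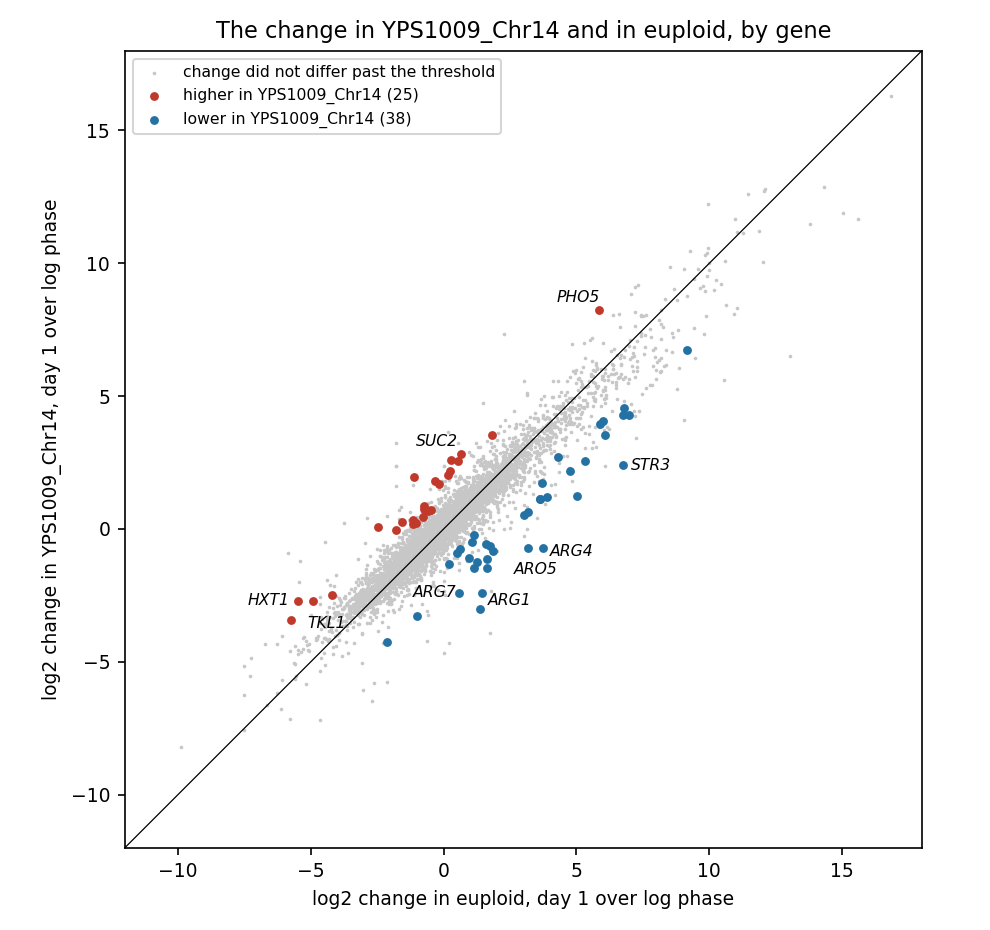
Log2 change in YPS1009_Chr14 (vertical) against that in euploid (horizontal), day 1 over log phase, for 5864 genes, with the line of equal change. Red points are the 25 genes whose change was higher in YPS1009_Chr14 and blue points the 38 whose change was lower, and several arginine genes lie below 0 in YPS1009_Chr14 and above 0 in euploid.

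Arginine synthesis genes made up 6 of the 38. This list was drawn up after the values had been seen, so its counts are a description. Of 8 genes of the path to arginine, 6 had a lower change in YPS1009_Chr14 than in euploid past the threshold. ARG4, argininosuccinate lyase, had 127 and 126 CPM at day 1 and 213 and 202 CPM in log phase in YPS1009_Chr14, and 158 and 166 CPM at day 1 and 13 and 11.2 CPM in log phase in euploid (difference -4.45 ± 0.33, adjusted p = 1.9e-10). At day 1 the strains were thus close, and in log phase they were far apart. ARG1, argininosuccinate synthetase, fell to 83.5 and 66.7 CPM at day 1, against 423 and 385 CPM in log phase, and differed from euploid by -3.89 ± 0.35. ARG7, ornithine acetyltransferase, differed by -3.00 ± 0.32, ARG3, ornithine transcarbamylase, by -2.50 ± 0.42 and ARG56, which makes the kinase and reductase of the path, by -2.38 ± 0.29. ARG2, the first enzyme, differed by -1.39 ± 0.35 (adjusted p = 0.042) and lost its call without any of 7 single libraries (differences from -1.12 to -1.49). The exceptions were ARG8 (-0.39 ± 0.33, adjusted p = 0.86) and CPA1 (0.13 ± 0.47).

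The log-phase level of these genes also stood apart from the other aneuploid strains. For the same 6 genes, both YPS1009_Chr14 log-phase cultures lay above all 8 log-phase cultures of the other strains. These genes were picked for their difference from euploid, to which high log-phase values contribute. The share of all genes that stand apart in this way was not counted. ARG1 was at 385 CPM or more in YPS1009_Chr14 and between 21.6 and 44.6 CPM in the others. At day 1, ARG1 had 66.7 and 83.5 CPM in YPS1009_Chr14, inside the range of 51.3 to 149 CPM of the others. YPS1009_Chr4 and YPS1009_Chr15 carry the same ho allele as YPS1009_Chr14 by the strain list, and their mean ARG1 level in log phase was 24.6 and 42.1 CPM. The difference in change passed the threshold in 5 of the 8 genes against YPS1009_Chr4 and in 6 against each of YPS1009_Chr12 and YPS1009_Chr15. The 6 against YPS1009_Chr12 include ARG8 (-1.08 ± 0.33, adjusted p = 0.026) and not ARG2 (-0.88 ± 0.35, adjusted p = 0.096). ARG2 did not pass against YPS1009_Chr4 either (-1.04 ± 0.35, adjusted p = 0.14). None of the 8 genes lies on chromosome XIV. The regulators ARG80, ARG81 and ARG82 had log-phase levels within the range of the other strains, and ORT1, the mitochondrial ornithine carrier, stood above it (29.6 and 36.7 CPM, against 11.4 to 27.0). Of the other arginine genes, CAR1 (306 and 275 CPM, against 48.4 to 279) and CAR2 (456 and 334 CPM, against 48.4 to 416) overlapped the other strains in log phase. CAR2 differed from euploid past the threshold (-2.04 ± 0.49, adjusted p = 0.028), and ORT1 did not (-1.65 ± 0.50, adjusted p = 0.13).

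**Figure D5:**
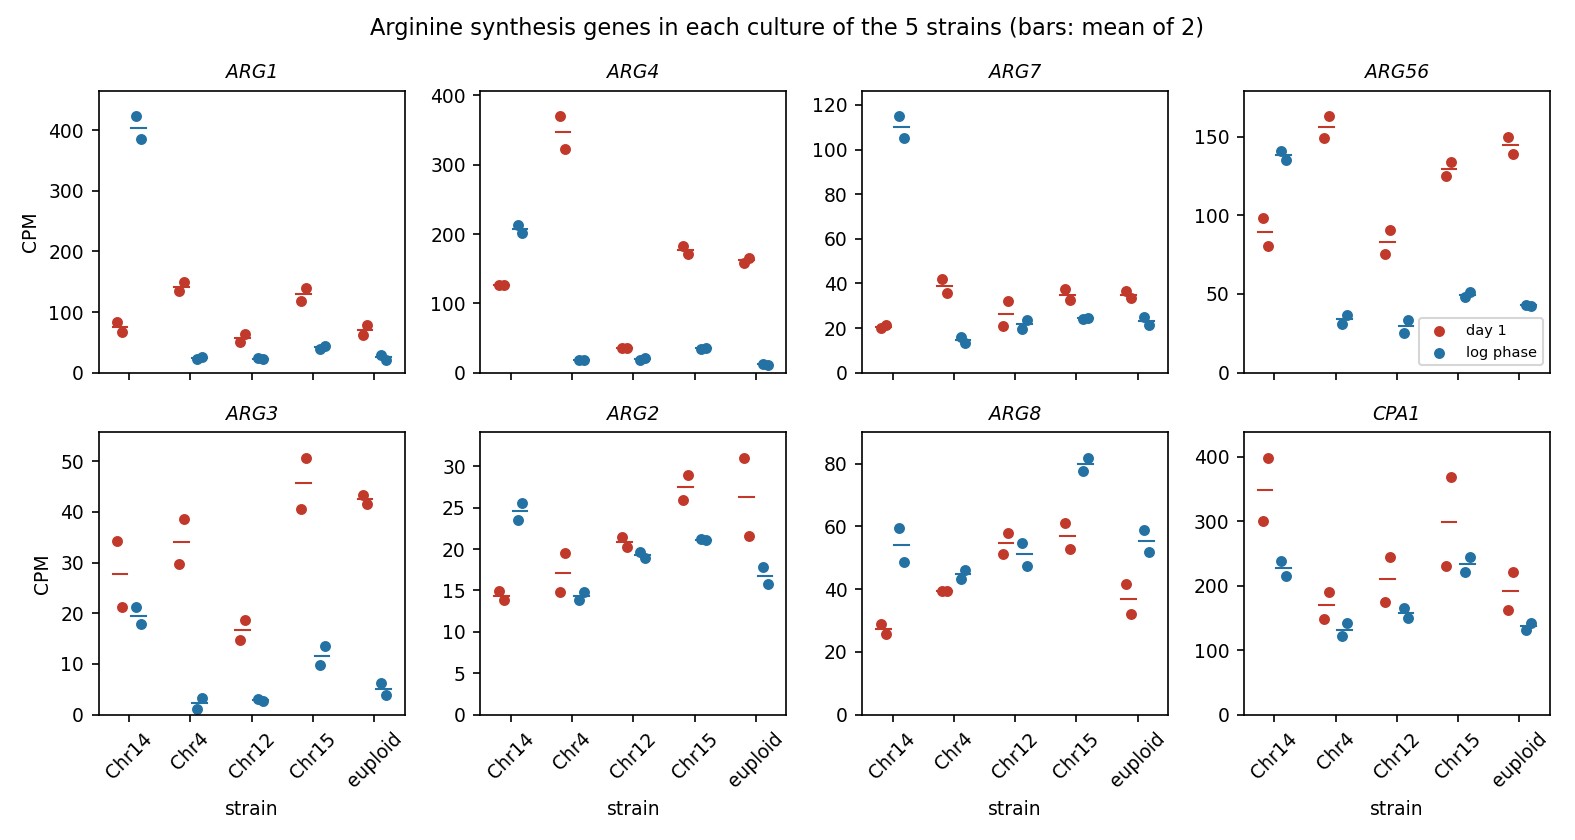
CPM of 8 arginine synthesis genes in each culture of the 5 strains (points, 2 per strain and time, day 1 in red and left of log phase in blue, bars for the mean). In log phase YPS1009_Chr14 lies above all other strains in ARG1, ARG4, ARG7, ARG56, ARG3 and ARG2 and not in ARG8 and CPA1.

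A few of the other genes with a lower change in YPS1009_Chr14 belong to amino acid metabolism, and others, such as HXT17, do not. STR3, a cystathionine beta-lyase of methionine synthesis, had 38.8 and 67.1 CPM at day 1 and 10.9 and 8.80 CPM in log phase, and in euploid 88.3 and 97.9 CPM at day 1 and 0.346 and 1.46 CPM in log phase (difference -4.35 ± 0.59). ARO5 differed by -3.89 ± 0.50 and ATG41 by -3.77 ± 0.71. Named after their values were seen, MET17 of sulfur assimilation, HIS5 of histidine synthesis and LEU4 of leucine synthesis differed by -2.60 ± 0.54, -2.52 ± 0.31 and -1.56 ± 0.38. LEU4 lies on chromosome XIV. From YPS1009_Chr12, STR3 and MET17 differed by only -0.65 and -0.16. The differences were -3.55 and -3.24 from YPS1009_Chr4, and -2.67 and -2.64 from YPS1009_Chr15. ALD4, the mitochondrial aldehyde dehydrogenase, rose in both strains, by 4.29 in YPS1009_Chr14 and 6.99 in euploid (difference -2.70 ± 0.54), and lost the call of a difference without YPS1009_Chr14 day 1 replicate 2 (-2.36, adjusted p = 0.083), euploid day 1 replicate 1 (-2.32) or euploid log-phase replicate 2 (-2.58). In 32 of the 38 genes the gap between the strains was larger in log phase than at day 1, with a median of 1.80 in log phase and -0.50 at day 1 (log2 of mean CPM plus 1).

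Among the 25 genes with a higher change, the gap was larger at day 1 in 18. PHO5 had 4230 and 4590 CPM at day 1 in YPS1009_Chr14 and 797 and 1680 CPM in euploid, with 13.2 to 23.3 CPM in the log-phase cultures of both (difference 2.38 ± 0.49). SUC2, invertase, had 338 and 458 CPM at day 1 in YPS1009_Chr14 and 67.9 and 111 CPM in euploid (difference 2.18 ± 0.42). ADE17 and MRH1, a plasma membrane protein, differed by 2.31 ± 0.51 and 2.03 ± 0.38. TKL1, transketolase, fell less in YPS1009_Chr14, to 222 and 352 CPM at day 1 against 56.2 and 83.9 in euploid (difference 2.20 ± 0.48). CHA1, which breaks down serine and threonine, had 194 and 108 CPM at day 1 in YPS1009_Chr14 and 38.3 and 17.9 CPM in euploid (difference 2.51 ± 0.59). YBR238C had 8.35 and 27.3 CPM at day 1 in YPS1009_Chr14 and 3.28 and 3.65 CPM in euploid (difference 2.31 ± 0.54, or 1.27 without YPS1009_Chr14 day 1 replicate 2). HXT1 was different in log phase instead, with 43.1 and 27.0 CPM in YPS1009_Chr14 and 294 and 245 CPM in euploid (difference 2.76 ± 0.48). The 25 also held 4 Ty retrotransposon frames, YNL054W-B, YOR343W-B, YBL100W-B and YOR192C-B, named after their values were seen and uncertain, as reads are shared among many copies. Of the 8 genes named here, MRH1 kept its call without each library in turn. PHO5, SUC2, HXT1, ADE17, TKL1, CHA1 and YBR238C lost it without 1 library or more: SUC2 without euploid day 1 replicate 1 (1.87, adjusted p = 0.055) and HXT1 without YPS1009_Chr14 day 1 replicate 1 (2.52, adjusted p = 0.060).

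Against the other aneuploids the change differed in more genes. It differed from that in YPS1009_Chr4 in 174 genes (2.97% of 5864, with 1.36% higher and 1.6% lower in YPS1009_Chr14). From YPS1009_Chr15 it differed in 400 (6.82%, with 4.3% higher and 2.52% lower), and from YPS1009_Chr12 in 785 (13.4%, with 6.51% higher and 6.87% lower). These comparisons share the YPS1009_Chr14 libraries and are given side by side only. Leaving out 1 YPS1009_Chr14 library changed these counts too: against YPS1009_Chr4, the 80 higher genes became 49 and 37 without day 1 replicates 1 and 2 and 38 and 33 without log-phase replicates 1 and 2, and the 94 lower genes became 49 without day 1 replicate 1 and 57 without log-phase replicate 1. Against YPS1009_Chr12, the 382 higher genes became 244 without day 1 replicate 2 and 247 and 244 without log-phase replicates 1 and 2. Against YPS1009_Chr15, the 252 higher genes became 144 without day 1 replicate 2 and 152 without log-phase replicate 1, and the 148 lower genes became 94, 96 and 94 without day 1 replicates 1 and 2 and log-phase replicate 1. ARG1 was lower in all 3 comparisons, with a log2 change of -2.42 in YPS1009_Chr14 and 2.53, 1.32 and 1.62 in YPS1009_Chr4, YPS1009_Chr12 and YPS1009_Chr15. PHO5 changed by 8.23 in YPS1009_Chr14 and by 7.76, 7.26 and 4.87 in the same strains, and differed past the threshold from YPS1009_Chr15. Some other genes with a higher change than in euploid had changes as high in other aneuploids. With YPS1009_Chr14 first and the same strains next, TKL1 changed by -2.72, -2.64, -2.05 and -4.44. SUC2 changed by 2.82, 1.96, 4.52 and 1.01, and ADE17 by 2.59, 4.67, 1.29 and 1.5. MRH1 changed by 2.56, 3.85, 2.83 and -0.34, and CHA1 by 0.06, 1.91, -0.62 and 1.65. HXT1 changed by -2.72, -6.03, -5.33 and -2.19, and YBR238C by -3.44, -5.67, -3.43 and -5.4.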

How the data were processed

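RNA of 40 libraries (5 strains, log phase and 3 later times, 2 cultures each) was sequenced after ribosomal RNA depletion. The authors mapped reads to an S288c genome carrying YPS1009 variants and deposited raw counts per gene from HTSeq. The submitters' processing notes name Trimmomatic 0.39, BWA 0.7.12-r1039 and HTSeq 0.7.2. The strand setting of the counting is not given in the sources used here. Quiescent cells were broken with beads, so extraction and time cannot be told apart.

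Counts were fitted in R 4.3.3 with edgeR 4.0.16 (quasi-likelihood test, TMM scaling, all 40 libraries, 1 coefficient per strain and time, no block) for genes that reached 10 counts in 2 libraries or more, and p-values were adjusted by the Benjamini-Hochberg method over the 5864 genes. The spread of all 20 groups was pooled. SEs were derived from the F statistics, so they rest on the pooled spread and not on the 2 cultures of a group alone. Differences between strains were tested as interaction terms. The 2 cultures differed beyond sampling noise (chi-square per degree of freedom 8.66 in log phase and 10.3 at day 1). In simulated counts of 5843 genes, 200 were changed, with as many rises as falls, and all others were equal at day 1 and in log phase. The spread was the same for all genes (dispersion 0.04). There, 99% of 4-fold and 53% of 2-fold changes were recovered and 2.56% of calls were false. In the measured libraries 67.8% of genes were called, so these rates do not carry over to this comparison.

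Named genes were the 12 largest rises and falls with at least 100 counts in both libraries of the higher group, a list of genes known in this process, the highest and lowest member of each gene list, the 8 largest differences from euploid in each direction, and the 4 genes with the most counts in each group. A few results of this rule are not reported here, and the arginine list and the counts of named genes leave them out. Any other gene was named after its values were seen. The comparison, the lists and the tests were chosen with earlier results of these data known, and the arginine lists after their values were seen. Symbols came from RefSeq for 6025 genes and chromosomes from systematic names. Alternatives were DESeq2 1.42.0 and its size factors, library totals, other filters and sets of libraries, scaling without the mitochondrial genome, a replicate block, and leaving out each library.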

Additional observations from a re-analysis of the deposited data

Results flagged for a closer look

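The change of 15 genes from log phase to day 1 differed between YPS1009_Chr14 and euploid in the test of the interaction (edgeR's quasi-likelihood test, adjusted p under 0.05, named by the size of the difference). Lower changes in YPS1009_Chr14 were found for ARG4 (log2 difference -4.45), STR3 (-4.35), ARO5 (-3.89), ARG1 (-3.89), ATG41 (-3.77), ARG7 (-3.00) and ALD4 (-2.70). Higher changes were found for HXT1 (2.76), CHA1 (2.51), PHO5 (2.38), ADE17 (2.31), YBR238C (2.31), TKL1 (2.20), SUC2 (2.18) and MRH1 (2.03). The ho alleles of YPS1009_Chr14 and euploid differ as well in the study's strain list. Between these strains alone, their part cannot be told apart from that of the extra chromosome. YPS1009_Chr4 and YPS1009_Chr15 are listed with the same ho allele as YPS1009_Chr14. The change in YPS1009_Chr14 less that in these strains was -4.96 and -3.06 in ARG4, and -0.08 and 1.72 in TKL1. The parts of the ho allele and of the chromosome markers were not tested.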

How the results depend on the processing

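Of 134 named genes called between day 1 and log phase, 14 lost the call under at least 1 alternative, and none of the 153 named genes with a test reversed. Of the 15 differences from euploid given above, 7 kept their call under all alternatives run. The counts of 2035 rises and 1940 falls stayed within 1.5 times, but DESeq2's size factors lowered the median gene by 0.26 and gave 1728 and 2310, so that 42.8% of calls were rises against 51.2%. Medians of the proteasome, permease, ergosterol and purine lists lay near 0 and took their sign from the setting.

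Counts of genes whose change differed from another strain moved most. Against euploid (25 higher, 38 lower) they were 70 and 188 with only the groups compared, 131 and 235 with only log-phase and day 1 libraries, and 69 and 112 by DESeq2's Wald test. With the mitochondrial genome left out of the scaling they were 16 and 48. Single libraries left out gave 7 to 20 higher and 17 to 37 lower. With only log-phase and day 1 libraries, 410 and 263 genes differed from YPS1009_Chr4, 935 and 1066 from YPS1009_Chr12 and 829 and 406 from YPS1009_Chr15. By the Wald test 125 higher and 225 lower differed from YPS1009_Chr4, 734 lower from YPS1009_Chr12 and 387 lower from YPS1009_Chr15. Library totals gave 213 and 674 against YPS1009_Chr12 and 422 and 89 against YPS1009_Chr15. Leaving out single libraries gave 33 to 49 higher and 49 to 73 lower against YPS1009_Chr4, 244 to 287 higher against YPS1009_Chr12, and 144 to 176 higher and 94 to 115 lower against YPS1009_Chr15. The causes were not tested. A culture left alone in its group was assumed to vary like the other groups. The log-phase chromosome XIV check was 0.91 over genes with 10 counts or more in each library used, against 0.90.

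With a replicate block, 2039 genes rose and 1946 fell, and 26 and 44 differed from euploid. The numbers were not used to pair the cultures: deviations of same-numbered log-phase and day 1 cultures had a correlation of -0.03 across 5864 genes.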
